A study of Mus musculus with 2 samples.

Results

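Rod bipolar cells were chosen by their own transcripts from 2 single-cell libraries, so the genes that chose them are no finding. A cell was taken where it had at least 500 genes, under 25% mitochondrial UMIs (unique molecular identifiers, each standing for 1 captured transcript) and at least 2000 UMIs. It also needed at least 1 UMI of Trpm1 and at least 3 UMIs summed over Prkca, Car8, Sebox and Vstm2b, with at least 2 of these 4 genes detected. Cells with more than 1 UMI summed over the amacrine genes Gad1, Gad2 and Slc6a9, or with 0.1% or more of their UMIs from the Müller glia genes Rlbp1, Glul, Slc1a3, Dkk3 and Crym, were left out. This gave 450 cells of the 12936 that passed the filters on genes and mitochondrial UMIs, 183 in control cells and 267 in knockout cells.

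Retinas had been taken from eyes given lipopolysaccharide (LPS, a bacterial outer-membrane lipid) in the vitreous, at 0.5 µg per eye. The control group was Atg5fl/fl, a floxed allele of the autophagy gene Atg5 with no Cre listed, and its listed treatment was LPS alone. The knockout group was GLAST-CreER; Atg5fl/fl, in which a tamoxifen-dependent Cre is driven by the promoter of a glial glutamate transporter, and it was listed with LPS and 4-hydroxy-tamoxifen. Each group was 1 library from pooled retinas (6 per group per the labels), so Cre, drug, library and group cannot be told apart, and cells of 1 retina cannot be told from those of another. The Cre driver is made for Müller glia and not for bipolar cells. The strain, age and sex of the mice and the delay after the injection are not stated in the sources used here.

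Rod bipolar cells are the second neuron of the rod pathway. They hold the metabotropic glutamate receptor mGluR6 on their dendrites, which acts through the G protein Go to keep the cation channel TRPM1 closed in the dark, so that light, which lowers glutamate release by rods, depolarises the cell. A complex of RGS proteins with Gβ5 and GPR179 speeds the shut-off of Go. Their axons end in ribbon synapses on amacrine cells, and protein kinase C alpha (Prkca) and the small protein Pcp2 are classical labels of the cell.

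The control rod bipolar cells held 2017169 UMIs in all and the knockout cells 2720470 UMIs. The median control cell had 10103 UMIs, with quartiles at 6324 and 13508.5, and the median knockout cell 9604 UMIs, with quartiles at 7766.5 and 12033.5. Levels are given as CPM, a gene's UMIs for every 1000000 UMIs of all the cells in the set, ratios are knockout over control, and ranges in parentheses are exact 95% intervals for counting error alone. No difference has a replicate check and no test was possible, since each group is 1 library. As a share of all cells that passed the filters, rod bipolar cells were 2.21% (1.91 to 2.55) in the control and 5.73% (5.08 to 6.43) in the knockout library, but of the cells with at least 2000 UMIs they were 6.17% (5.33 to 7.09) and 7.59% (6.74 to 8.51). The cells that passed had a median depth of 1396 UMIs on the control side and 6808 UMIs on the knockout side, so the first pair of shares moved with the depth gap. The libraries had 15 barcodes in common, of which 0 belonged to rod bipolar cells.

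The label was checked against transcripts that the rule had not used, and part of the cells went against it. Pcp2 was at 0 in 21 of the 183 control cells and 37 of the 267 knockout cells. Scgn, which encodes the calcium-binding protein secretagogin and is made by cone bipolar types, had at least 2 UMIs in 31 control cells and 61 knockout cells. Markers of retinal ganglion cells reached 5 UMIs in 4 control and 3 knockout cells. The 3 control cells with 20 or more ganglion UMIs were very deep, at 55126 to 63017 UMIs each, and held 8.96% of all UMIs of the control rod bipolar cells. No doublet caller was run on these cells.

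For this reason a stricter set was defined after the values were seen. Gene values between the libraries are from the stricter set unless the full set is named, and counts for the full set are given where they differ. The stricter set has at most 1 UMI of Scgn, under 5 UMIs of ganglion markers, under 5 UMIs of amacrine markers (Dab1 set aside) and under 50 UMIs of erythroid markers. It left out 38 control cells (20.8%) with 29.4% of the control UMIs and 65 knockout cells (24.3%) with 29.9% of the knockout UMIs, and kept 145 control and 202 knockout cells. There, Pcp2 was detected in 138 of 145 control cells (95.2%) and 197 of 202 knockout cells (97.5%). Among the cells left out it was detected in 24 of 38 and 33 of 65. After thinning each cell to 2000 UMIs, the stricter set still had Pcp2 in 94.5% of control and 95.05% of knockout cells, against 2.09% and 2.31% of rods, a type that should lack it. Median depths were 9571 and 9409 UMIs in the stricter set, with lower quartiles of 4985 and 7578.75 UMIs, and 1214.5 and 3299 UMIs in the rods before thinning.

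**Figure D1:**
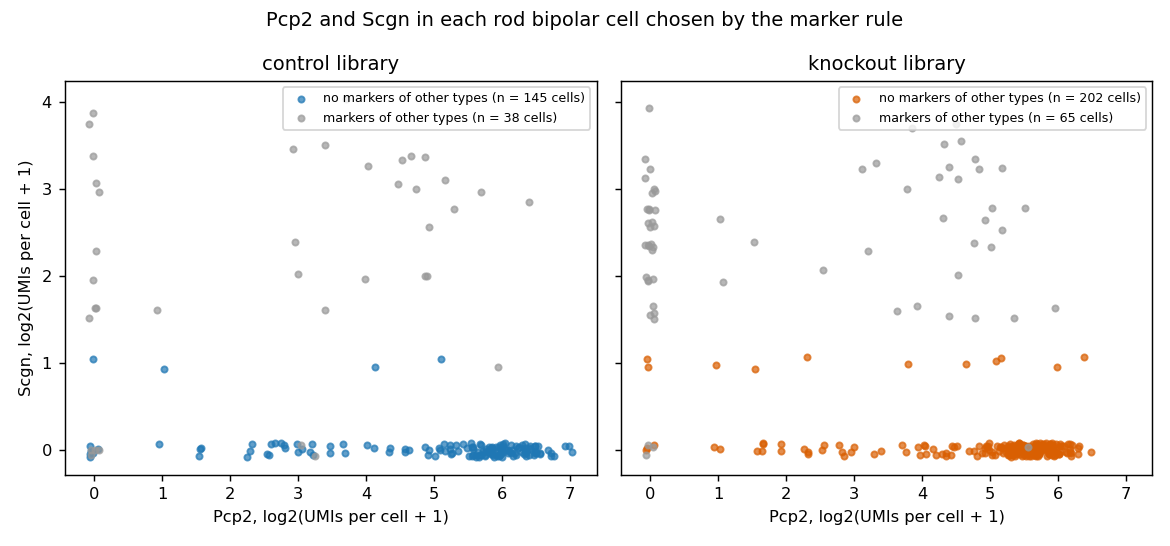
Each point is 1 cell of the full set, with the control library on the left and the knockout library on the right. The horizontal axis gives Pcp2 and the vertical axis Scgn, both as log2(UMIs per cell + 1) with a small random shift so that points do not hide each other. Coloured points (145 and 202 cells) are the stricter set, below its limits on markers of other types. They lie along the bottom because that set allows at most 1 UMI of Scgn, and have a median of 52 and 42 UMIs of Pcp2. Most of the grey points (38 and 65 cells) have at least 2 UMIs of Scgn, which left them out, and many have no Pcp2.

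Cells near the limits of the rule were the least certain. Of the cells with exactly 3 marker UMIs, just inside the limit, 0 of 5 in the control and 3 of 13 in the knockout library had Pcp2. Just outside, at 2 marker UMIs, it was 3 of 9 and 2 of 9. Depth made less of a difference: cells up to 500 UMIs above the depth limit had Pcp2 in 2 of 2 and 7 of 7 cases, and otherwise eligible cells up to 500 UMIs below it in 5 of 6 and 6 of 8.

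The genes of the rule are given as a description, since they chose the cells. In the stricter set Prkca stood at 5861 CPM in control and 5029 CPM in knockout cells, with a per-cell median of 47 and 40.5 UMIs and a highest cell of 340 and 209. Car8, a carbonic-anhydrase-related protein, stood at 1435 and 1668 CPM. The homeobox gene Sebox stood at 474 and 443 CPM and was at 0 in 26 cells of each library. Vstm2b stood at 580 and 529 CPM.

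Rod bipolar cells were then set against cone bipolar cells of the same libraries. Cone bipolar cells had at least 2 UMIs of Scgn and at most 1 UMI of the 4 marker genes. They were ON cells where Isl1, Grm6 and Trpm1 summed to at least 2 UMIs (133 control and 243 knockout cells) and OFF cells where these were at 0 and Grik1 and Tacr3 summed to at least 2 UMIs (22 and 58 cells). Since all these cells were sorted by transcripts, the values describe the sets and test nothing. The cone bipolar sets kept the rule's amacrine and Müller limits. They were not held to the stricter set's limits on ganglion, amacrine and erythroid markers. A gene was counted as higher where all 4 ratios, over ON and over OFF cells in each library, were at least 2, with 0.5 added to each count. Of 5442 genes with at least 100 UMIs in the stricter set, 282 (5.18%) were higher and 88 (1.62%) lower in rod bipolar cells. The full set gave 265 (3.77%) and 119 (1.69%) of 7028 genes.

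The genes that stood farthest above cone bipolar cells, the rule's own genes aside, numbered 12. Tmem196, a membrane protein, stood at 405 CPM in control and 368 CPM in knockout rod bipolar cells, with 0 and 1 UMI in all ON cells and 0 and 1 UMI in all OFF cells. Asic2, a proton-gated sodium channel subunit, stood at 3096 and 2407 CPM against 39.6 and 17.03 CPM in ON cells. Ano3, of the TMEM16 family, stood at 504 and 282 CPM against 3.19 and 3.41 CPM in ON cells. After thinning, Asic2 was seen in 89.7% of control and 91.6% of knockout cells, and in 2.51% and 1.39% of rods. Further genes among them were Kcnt2, a sodium-activated potassium channel (159 and 196 CPM), Sema3e, a secreted semaphorin (266 and 225 CPM), the sorting receptor Sorcs3 (138 and 126 CPM), Wscd2 (299.6 and 309 CPM) and Vit (104 and 131 CPM). The unnamed loci 5730419F03Rik, Gm30725 and Gm28807 and the membrane glycoprotein Tpbg completed the 12.

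On the other side stood genes of cone bipolar cells. Grik1, a kainate receptor subunit through which OFF cells read cone glutamate and one of the genes that chose the OFF cells, stood at 187 and 192 CPM in rod bipolar cells against 5211 and 5572 CPM in ON and 9131 and 9716 CPM in OFF cells. Lrrc4c, which encodes the netrin-G1 ligand, stood at 35.1 and 29.9 CPM against 1649 and 1036 CPM in ON cells. The other genes of this side were Samsn1, Zfp804b, Ptprz1, Epha3, Cdr1os and Pcdh9.

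**Figure D2:**
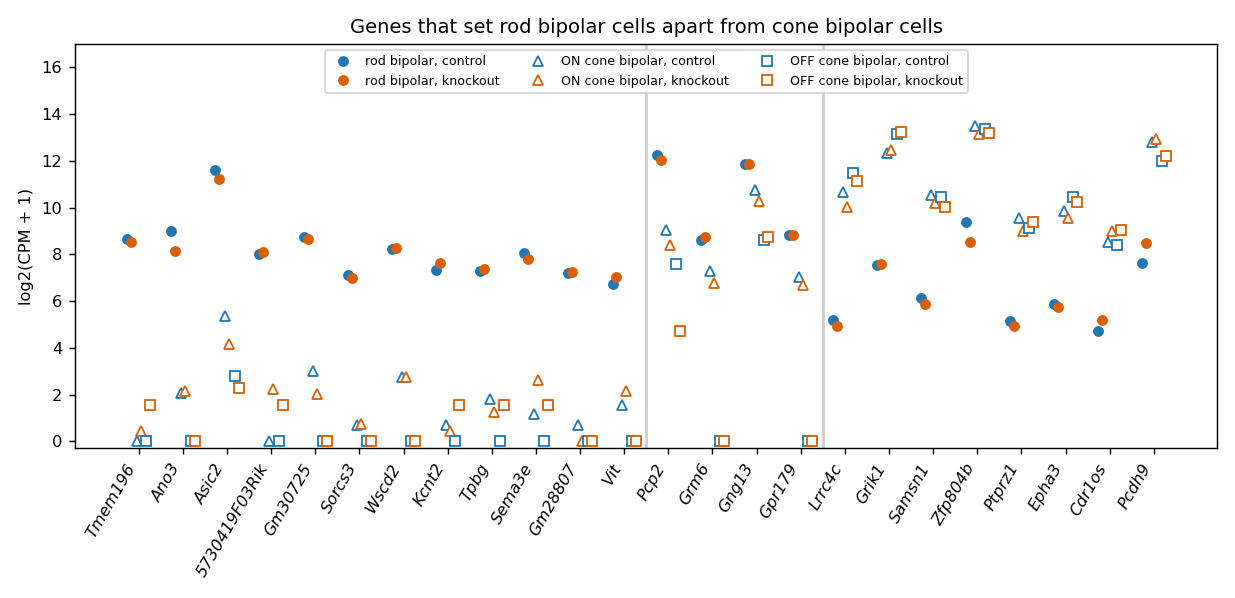
The vertical axis gives each gene's level as log2(CPM + 1) in rod bipolar cells of the stricter set (filled circles) and in ON (triangles) and OFF (squares) cone bipolar cells, with the control library in blue and the knockout library in orange. The left block shows the 12 genes farthest above cone bipolar cells, the middle block Pcp2 and 3 genes of the mGluR6 pathway, and the right block the 8 genes farthest below. Filled circles of both libraries lie close together for most genes, and Tmem196, at 405 and 368 CPM, has at most 1 UMI in any set of cone bipolar cells.

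The mGluR6 cascade was compared with cone bipolar cells next. Of the 12 of its 14 listed genes that could be measured, 9 passed the 2-fold limit in all 4 comparisons: Grm6, Trpm1, Gnao1, Gnb3, Gng13, Rgs7, Gpr179, Pcp2 and Tpbg (8 of 13 in the full set, where Gng13 missed it). Trpm1 chose these cells, and Trpm1 and Grm6 sorted ON from OFF cells, so their place is fixed by the choice. Gng13, a G protein gamma subunit, stood at 3742 and 3743 CPM against 1731 and 1245 CPM in ON cells. Rgs7, the GTPase activator, stood at 2442 and 2112 CPM against 569 and 599 CPM. Nyx, which encodes nyctalopin, the leucine-rich repeat protein that holds TRPM1 at the synapse, stood at 45.6 and 44.6 CPM in rod bipolar cells and at 50.4 and 33.0 CPM in ON cells, with 0 UMIs in OFF cells.

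Among transcription factors, 5 of 14 were higher and 1 was lower in rod bipolar cells of the stricter set. Bhlhe23, a factor rod bipolar cells need to mature, stood at 160 and 172 CPM against 34.5 and 26.6 CPM in ON cells. Prdm8 stood at 358 and 332 CPM against 81.1 and 121 CPM, and Isl1, St18 and Sebox were also higher, Isl1 having sorted ON from OFF cells and Sebox having chosen the rod bipolar cells. Lhx4 was lower, at 83.5 and 70.8 CPM against 279 and 224 CPM in ON and 457 and 329 CPM in OFF cells. Otx2, common to photoreceptors and bipolar cells, had all 4 ratios between 0.95 and 1.16, and Gabrr1, the rho1 subunit of GABA-C receptors, between 0.88 and 1.14. The ribbon protein gene Ctbp2 had ratios of 0.86 to 0.99. Of 28 ribbon synapse genes, 0 were higher and only Rims1 was lower.

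Calcium handling was another difference. Ppp3ca, the catalytic subunit of calcineurin, stood at 1479 and 1397 CPM against 427 and 447 CPM in ON cells. The calcium channel subunit genes split: Cacna2d3 stood at 1243 and 1040 CPM against 230.5 and 230.2 CPM in ON cells, while Cacna2d1 stood at 138 and 144 CPM against 435 and 448 CPM in ON and 1610 and 1386 CPM in OFF cells.

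Genes of the early response, which neurons switch on within minutes of stimulation or handling, were counted against cone bipolar cells. Of 16 measured genes, 6 (Fos, Fosb, Jun, Egr1, Ier2 and Dusp1) were in the stricter set at least 2-fold lower than in every set of cone bipolar cells, and 0 were higher. Fos stood at 212 CPM in control and 176 CPM in knockout rod bipolar cells, at 893 and 874 CPM in ON cells and at 2581 and 2011 CPM in OFF cells. The full set gave only 1 of 17 (Fosb), where Fos stood at 584 and 439 CPM. Only the rod bipolar side was held to the stricter limits. Of 3 metallothionein genes, Mt1 and Mt2 were more than 2-fold higher than in every set of cone bipolar cells, and Mt3 was not. Mt1, a metal-binding protein induced by inflammation and zinc, stood at 579 and 856 CPM against 217 and 314 CPM in ON cells and 105 and 210 CPM in OFF cells. Mt1 alone passed this limit in the full set. Over all other cells of the libraries Mt1 stood at 3678 and 9198 CPM, and whether free RNA adds to the level in rod bipolar cells was not tested.

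Il1rap, the shared co-receptor of interleukin-1 and interleukin-33, stood at 383 and 365 CPM in rod bipolar cells against 10.2 and 7.49 CPM in ON cells and 29.3 and 27.3 CPM in OFF cells. It was among the genes at least 2-fold higher in the full set too, as were the growth factor gene Tgfb2 (779.6 and 809 CPM in the stricter set) and the acute-phase transcription factor gene Cebpb (51.2 and 55.6 CPM). Tlr4, the receptor that senses LPS, had 0 UMIs in either library of the stricter set and 2 UMIs in the full set. Gfap, the glial filament gene, had 2 and 3 UMIs in the stricter set.

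Knockout and control rod bipolar cells were compared next, which asks how neurons outside the Cre target differed between the groups. Over the full set, 227 of 7028 genes with at least 100 UMIs (3.23%) were at least 1.5-fold higher in the knockout library and 306 (4.35%) at least 1.5-fold lower. For the stricter set the numbers were 158 (2.9%) and 122 (2.24%) of 5442 genes. List members were counted where they had at least 50 UMIs. At that limit the background was 5.18% higher and 6.4% lower in the full set, and 5.07% higher and 4.33% lower in the stricter set.

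RNA of other cells differed between the libraries within rod bipolar cells. The summed level of 13 rod markers over the full set was 1819 CPM in control and 769 CPM in knockout cells, and 1641 and 603 CPM in the stricter set, a ratio of 0.37 (0.34 to 0.39). Ganglion markers stood at 669 and 178 CPM in the full set and at 18.9 and 25.2 CPM in the stricter set. Erythroid markers stood at 3260.01 and 91.9 CPM in the full set and at 14.03 and 102 CPM in the stricter set. Lens markers stood at 13.9 and 227.5 CPM in the full set and at 11.9 and 3.67 CPM in the stricter set. In the stricter set 10 Müller glia markers stood at 166 and 241 CPM with Kcnj10 at 0 in both, 9 neutrophil markers at 108 and 97.1 CPM, and 11 monocyte and microglia markers at 28.8 and 7.87 CPM, with C1qa, C1qb, C1qc, Csf1r and Ms4a7 at 0 in the knockout library. Their part in the results that follow was not tested, except where the same ratio in other cells is given.

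The mGluR6 cascade had a median ratio near that of all genes, while single members differed. Of its 14 genes, 0 were 1.5-fold higher and 2 were lower in either set, and the median log2 ratio was 0.05 in the full and −0.01 in the stricter set, against 0.03 and 0.05 over all genes. Gng13 gave 1.00 (0.97 to 1.04), Trpm1 0.98 (0.95 to 1.02), Gpr179 1.00 (0.90 to 1.11), Nyx 0.98 (0.70 to 1.37) and Grm6 1.11 (0.99 to 1.23) in the stricter set. Trpm1 chose the cells, so its ratio is given as a description only. Gnb3, the G protein beta subunit shared with cones, was at 1723 CPM in control and 2188 CPM in knockout cells, a ratio of 1.27 (1.21 to 1.34). Rgs7 and Pcp2 were both at 0.86. The 2 lower genes were Rgs9bp, at 26.7 and 15.7 CPM, and Rgs20, at 47.7 and 9.45 CPM, a ratio of 0.20 (0.11 to 0.34). Both were lower over all other cells as well, where Rgs9bp had a ratio of 0.24 and Rgs20 of 0.33. In ON cone bipolar cells Rgs9bp gave 0.45 (0.30 to 0.67) and Rgs20 0.94 (0.62 to 1.44). After thinning to 2000 UMIs the log2 ratio of Rgs9bp in the stricter set was 0.069, so its direction turned.

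Other gene lists of the rod bipolar programme had few members past 1.5-fold in the stricter set. Inhibitory receptor genes numbered 0 of 10 higher and 0 lower, with Gabrr1 at 0.98 (0.85 to 1.13) and Gabrr2 at 1.22 (1.11 to 1.35). Of 29 ribbon synapse genes, 0 were higher and 1, Cplx4, was lower at 0.27 (0.17 to 0.42), which in all other cells gave 0.37. Complexin 3 (Cplx3), the main complexin of ribbon synapses, gave 1.04 (0.96 to 1.11), and Ctbp2 0.97 (0.82 to 1.14). Among 15 transcription factors only Six3 was higher, from 51.9 to 83.4 CPM, and 0 were lower. Otx2 gave 0.89 (0.78 to 1.01) and Cabp5, a calcium sensor of bipolar cells, 1.09 (0.99 to 1.20). Of 15 ion channel genes, only Slc24a3, an exchanger of sodium for calcium and potassium, was lower, at 0.61 (0.47 to 0.78), and 0 were higher. Of 10 calcium buffers and sensors 0 were higher and 0 lower, with a median log2 ratio of 0.04.

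The full set, which holds the cells with markers of other types, gave more lower genes in 2 of these lists. Of 20 ion channel genes 6 were lower there, among them Kcna2, Kcnd2, Kcnip4, Ano2 and Atp1b1, and 0 were higher, with a median log2 ratio of −0.26. Kcnd2, a potassium channel of transient currents, stood at 103 and 6.62 CPM, a ratio of 0.06 (0.04 to 0.10). Of 18 calcium buffers and sensors 5 were lower (Calb2, Pvalb, Vsnl1, Hpca and Ncs1) and 0 higher, with a median of −0.02. Calretinin (Calb2), a calcium buffer of amacrine and ganglion cells, stood at 618 and 221 CPM. Of 13 inhibitory receptor genes Gabrb1 and Gabrb2 were higher and Gabbr2 lower, of 30 ribbon synapse genes 1, Syt2, was higher and 2 were lower, Cplx4 among them, and of 18 transcription factors 2 were higher and 1, Nfib, was lower. Over all genes of the full set 5.18% were higher and 6.4% lower.

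Atg5, the gene floxed in both groups, had 55 UMIs in control and 61 UMIs in knockout cells of the stricter set, or 38.6 and 32.0 CPM, a ratio of 0.83 (0.57 to 1.22). In the full set it was 0.90 (0.65 to 1.24). The 3' tags counted here need not lie in the deleted part, so this value checks neither the deletion nor the labels. Of 26 measured genes of the autophagy machinery, Pik3c3, the lipid kinase of autophagosome initiation, was higher at 1.64 (0.88 to 3.17) and Wipi2, which binds the lipid it makes, lower at 0.42 (0.26 to 0.66). Over all other cells Wipi2 had a ratio of 1.11. Of 13 autophagy receptors, 1 was higher and 0 were lower. The receptor that moved was Bnip3, described below, and Sqstm1, whose protein builds up when autophagy stalls, stood at 94.0 and 112 CPM, a ratio of 1.19 (0.96 to 1.49).

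Glycolysis stood out among the lists in the stricter set. Of 22 measured genes, 20 were above 1 and 6 were at least 1.5-fold higher in the knockout library, with 0 lower. Their median log2 ratio was 0.44, against 0.05 over all genes. Of all 7873 genes counted in the stricter set 4488 were above 1, 5.07% were higher and 4.33% lower. In the full set 2 of 24 glycolysis genes were higher (Slc2a1 and Tpi1), 1 was lower (Ldhb) and the median was 0.30. The same list had 0 of 25 higher, 0 lower and a median of 0.10 in ON cone bipolar cells, where 6.16% of all genes were higher and 4.2% lower. In OFF cells the median was −0.12, with 0 of 18 higher and 1 lower (Slc2a3), where 9.12% of all genes were higher and 7.32% lower. The difference between the cell types was not tested. Ratios also differed with gene length. The 1066 genes with the shortest loci, of those with at least 100 UMIs, had a median log2 ratio of 0.15 in the stricter set. Whether length bears on the glycolysis list was not tested.

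The 6 genes cover glucose entry and the lower part of the pathway. Slc2a1, the glucose transporter GLUT1, stood at 24.6 CPM in control and 40.9 CPM in knockout cells, a ratio of 1.67 (1.10 to 2.56) on 35 and 78 UMIs. Its ratio over the full set was 2.48, so the cells outside the stricter set moved it. Tpi1, triosephosphate isomerase, stood at 630 and 1014 CPM, a ratio of 1.61 (1.49 to 1.74). It had UMIs in 86.9% of control and 98.0% of knockout cells. Pgk1 (phosphoglycerate kinase) gave 274 and 426 CPM and 1.55 (1.37 to 1.76), Eno1 (enolase) 279 and 432 CPM and 1.55 (1.38 to 1.75), Pgam1 (phosphoglycerate mutase) 675 and 1014 CPM and 1.503 (1.39 to 1.63), and Ldha (lactate dehydrogenase A) 220 and 332 CPM and 1.51 (1.32 to 1.74). The full set gave 1.54 for Tpi1, 1.45 for Pgk1, 1.43 for Eno1, 1.41 for Pgam1 and 1.46 for Ldha.

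Most steps between were also above 1. Gapdh gave 1619 and 2242 CPM and 1.39 (1.32 to 1.46), Pkm 1.40 (1.28 to 1.53), Gpi1 1.38 (1.22 to 1.57), Aldoa 1.29 (1.21 to 1.38) and Hk1, the first kinase, 1.10 (0.94 to 1.30). In ON cone bipolar cells Tpi1 gave 1.25, Gapdh 1.18, Pgk1 1.24 and Ldha 1.16, and in OFF cells 0.77, 1.00, 0.90 and 0.84. Over all other cells Tpi1 gave 1.35 and Ldha 0.89.

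Genes that are known, like these, as targets of hypoxia-inducible factors were looked at after their values were seen. Bnip3, a mitophagy receptor, stood at 112 and 204 CPM, a ratio of 1.82 (1.51 to 2.20). Egln1, the oxygen sensor that marks hypoxia-inducible factors for decay, stood at 48.4 and 89.7 CPM, a ratio of 1.85 (1.39 to 2.49). Higd1a, a mitochondrial protein, stood at 174 and 306 CPM, a ratio of 1.76 (1.51 to 2.05). In ON cells these gave 1.09, 0.95 and 1.36, and over all other cells 1.51, 1.04 and 1.51. Chosen in this way they lend no support to the list.

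The 250 bases before the starts of Ldha (chr7:46845554-46845803, plus strand) and Pgk1 (chrX:106186850-106187099, plus strand) are shown since both genes were higher and since the core ACGTG, the letters hypoxia-inducible factors read, lies in them more than once. They come from RefSeq on GRCm38.p6, run 5′ to 3′ on the gene's strand up to the base before the start, and capitals mark ACGTG on either strand.
Ldha: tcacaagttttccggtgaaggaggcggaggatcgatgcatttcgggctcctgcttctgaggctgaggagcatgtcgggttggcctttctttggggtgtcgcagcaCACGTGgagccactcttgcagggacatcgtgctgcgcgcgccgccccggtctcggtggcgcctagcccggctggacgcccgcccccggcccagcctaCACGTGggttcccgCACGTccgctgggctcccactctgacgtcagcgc
Pgk1: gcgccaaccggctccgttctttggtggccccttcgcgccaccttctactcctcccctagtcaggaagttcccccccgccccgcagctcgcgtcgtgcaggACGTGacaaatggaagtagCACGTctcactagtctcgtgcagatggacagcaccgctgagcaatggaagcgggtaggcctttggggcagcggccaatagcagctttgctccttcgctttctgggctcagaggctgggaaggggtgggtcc
ACGTG was found on either strand 5 times before Ldha, 2 times before Pgk1 and once each before Slc2a1 and Pgam1, but at no place before Tpi1 and Eno1, where nothing follows from its absence. Of all 32851 promoter windows of this length 16.6% hold it. Matches on both strands can overlap, since its reverse complement CACGT shares letters with it in CACGTG. A match is a run of letters, not a shown site.

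Genes of oxidative phosphorylation moved less than those of glycolysis, and the nuclear and the mitochondrially encoded ones leaned opposite ways. Of 47 nuclear genes of oxidative phosphorylation 0 passed 1.5-fold in either direction, although 42 were above 1, with a median log2 ratio of 0.17 in the stricter set. Of all 7873 genes counted in that set 4488 were above 1, with a median of 0.05. The 13 mitochondrially encoded genes had a median of −0.14, with mt-Nd6 lower at 0.52 (0.38 to 0.71). Ribosomal protein genes, 52 in all, had a median of 0.13 with 0 past 1.5-fold in the stricter set, and 0.24 in the full set. The 1066 genes with the shortest loci had a median of 0.15 in the stricter set. Whether length bears on the nuclear and ribosomal lists was not tested.

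**Figure D3:**
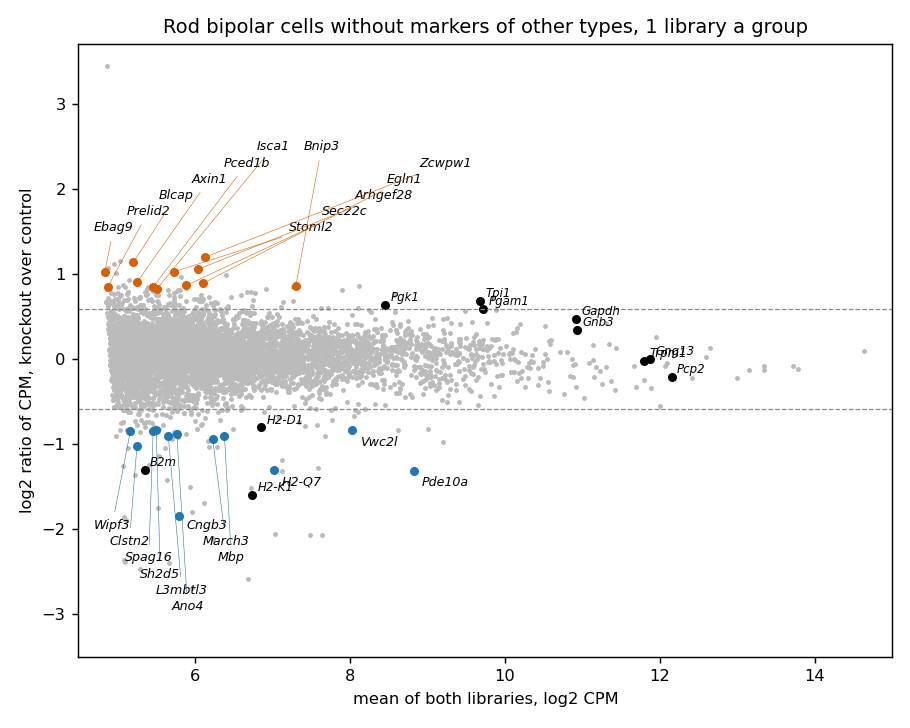
Each grey point is 1 of the 5442 genes with at least 100 UMIs in the stricter set. The horizontal axis is the mean level of both libraries in log2 CPM, the vertical axis the log2 ratio of knockout over control, and the dashed lines mark 1.5-fold. Orange and blue points are the 12 eligible genes with the largest and the 12 with the smallest ratio, and black points are genes named in the text, where Tpi1, Pgam1 and Pgk1 lie on or above the upper line and H2-K1, H2-Q7, B2m and H2-D1 below the lower one.

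Genes of MHC class I, which show peptides to CD8 T cells, had lower summed levels in the knockout library. Of the control class I UMIs of the stricter set 66.1% lay in 12 cells, as described below. H2-K1, a heavy chain, stood at 161 CPM in control (229 UMIs) and 53.0 CPM in knockout cells (101 UMIs), a ratio of 0.33 (0.26 to 0.42) in the stricter set. H2-Q7, a class Ib heavy chain, stood at 186 and 75.04 CPM, a ratio of 0.40 (0.33 to 0.50). B2m, the light chain of all of them, stood at 58.2 and 23.6 CPM, a ratio of 0.41 (0.28 to 0.59), and H2-D1 at 147 and 84.5 CPM, a ratio of 0.57 (0.46 to 0.71). The full set gave 0.61, 0.45, 0.64 and 0.76 in the same order, the last short of 1.5-fold. The heavy chain genes are near-identical in parts, so reads between them may have been split and their separate values are uncertain.

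These 4 were the only members of the list of interferon gamma and antigen presentation genes past 1.5-fold in the stricter set, of 16 measured, with 0 higher and a median log2 ratio of 0.03. In the full set 4 of 21 were higher (Tapbp, Gbp7, Irgm1 and Socs3) and 5 lower (B2m, H2-K1, H2-Q7, Tap1 and Psmb9). Over all genes of the full set these shares were 5.18% and 6.4%. Tap1 and Psmb9 did not reach 50 UMIs in the stricter set, so no ratio was counted there. Over ON cone bipolar cells H2-K1 gave 0.94, H2-D1 1.05, B2m 0.76 and H2-Q7 0.26, and over all other cells 0.79, 0.86, 0.87 and 0.46. The few OFF cells gave 0.54, 0.71, 0.36 and 0.04. H2-Q7 was thus below 0.5 in each of these sets, while the classical chains were closer to 1 in ON cells than in rod bipolar cells. That the ratios differ between cell types was not tested.

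The class I transcripts lay in few cells. Summed over the 4 genes, a stricter-set cell had a median of 1 UMI in both libraries. In the control library 17 of 145 cells had 10 or more UMIs and held 74.97% of the class I UMIs, while in the knockout library 7 of 202 cells did and held 25.6%. The highest knockout cell had 20 UMIs. In the control library 12 cells stood above that, at 35 to 63 UMIs, with the next cell at 20, and these 12 held 66.1% of all control class I UMIs. The cells with under 10 UMIs had 160.5 CPM of class I transcripts in control and 183 CPM in knockout cells, so below this limit, set after the values were seen, the direction was the other way. With the 5 highest cells of each gene left out of each library, the log2 ratios in the stricter set were −1.45 for H2-K1, −1.03 for H2-Q7, −1.12 for B2m and −0.62 for H2-D1. Over the full set the log2 ratio of H2-Q7 went from −1.15 to −0.87 in this way and to −0.38 after thinning to 2000 UMIs. After thinning, B2m was found in 7.59% of control and 3.96% of knockout cells, below the 11.3% and 8.80% of rods. H2-D1 was found in 19.3% and 11.9%, also below the 32.6% and 30.1% of rods. Shares at or below those in rods cannot be told from background here, so no direction is read from them. Whether the rod shares are free RNA or RNA of the rods was not tested. H2-K1 was found in 14.5% and 9.90%, against 17.6% and 5.56% of rods, so only its knockout share was above them. H2-Q7 was found in 15.86% and 10.4%, above the 5.02% and 0.926% of rods, but in the full set in 11.48% of control and 14.2% of knockout cells, the other way round.

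**Figure D4:**
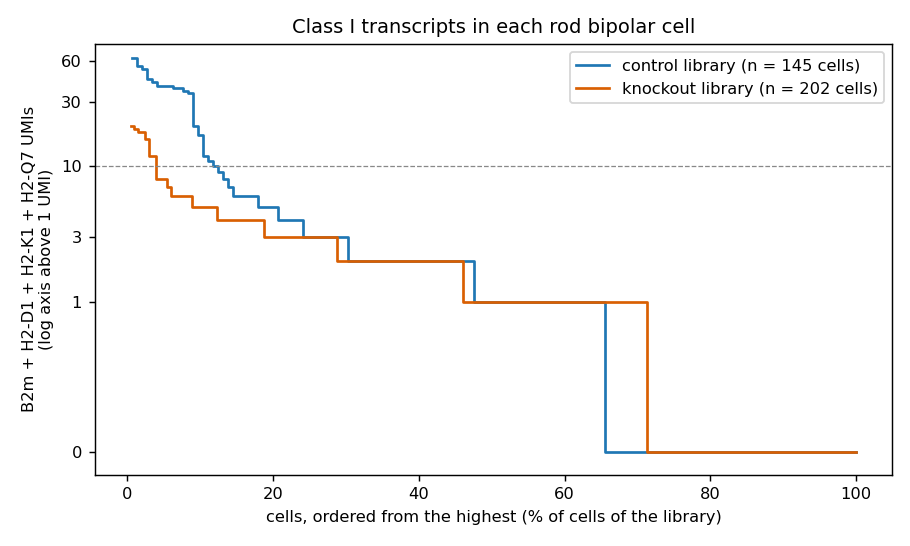
Cells of the stricter set are ordered from the highest to the lowest along the horizontal axis, as a percentage of the library's cells. The vertical axis gives the UMIs of B2m, H2-D1, H2-K1 and H2-Q7 summed per cell, on a scale that is logarithmic above 1 UMI, with a dashed line at 10 UMIs. The control line (blue, 145 cells) starts at 63 UMIs and drops at 12 cells from 35 to 20 UMIs, while the knockout line (orange, 202 cells) starts at 20 UMIs.

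The control cells with 10 or more class I UMIs carried other interferon-induced genes as well, at levels above the rest of the control cells. Irf7 stood at 137 CPM in them (27 UMIs) and 12.2 CPM in the rest, Psmb9, an immunoproteasome subunit, at 91.1 and 5.70 CPM, Tap1, the peptide transporter, at 60.8 and 5.70 CPM, and Nlrc5, the activator of class I genes, at 86.1 and 18.7 CPM. Pcp2 stood at 5124 CPM in them and 4850 CPM in the rest, and Prkca at 4622 and 6060 CPM. In the 7 knockout cells with 10 or more class I UMIs Pcp2 stood at 3172 CPM against 4261 CPM in the rest, and Prkca at 3974 against 5073 CPM. In the control library monocyte and microglia markers stood at 20.3 CPM in the class I cells and 30.1 CPM in the rest. Neutrophil markers stood at 70.9 and 114 CPM there, so neither was higher in the class I cells. Endothelial markers stood at 35.4 and 9.78 CPM in the same control cells. The median depth of the control class I cells was 11041 UMIs against 9187.5 UMIs in the rest of the control cells. ON cone bipolar cells of the control library had such cells too, 18 of 133 with up to 81 UMIs. In the knockout library 47 of 243 ON cells reached 10 UMIs, with a highest value of 37.

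The 250 bases before the class I genes are printed because the summed levels of the 4 genes were lower together in the stricter set. H2-K1 lies at chr17:34000348-34000597 (minus strand), H2-D1 at chr17:35262844-35263093 (plus), H2-Q7 at chr17:35438905-35439154 (plus) and B2m at chr2:122147437-122147686 (plus), on the same RefSeq build and in the same orientation as above. Capitals mark a form of the NF-κB motif, GGGGA and CC with 3 bases of any kind (N) between them, or, in B2m, a form of the interferon-stimulated response element, GAAA and GAAA with 2 bases of any kind between them.
H2-K1: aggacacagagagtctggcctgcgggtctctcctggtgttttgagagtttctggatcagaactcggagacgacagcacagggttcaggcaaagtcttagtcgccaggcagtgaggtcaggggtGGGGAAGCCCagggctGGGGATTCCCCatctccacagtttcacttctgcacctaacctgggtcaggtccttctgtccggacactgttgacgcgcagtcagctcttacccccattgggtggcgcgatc
H2-D1: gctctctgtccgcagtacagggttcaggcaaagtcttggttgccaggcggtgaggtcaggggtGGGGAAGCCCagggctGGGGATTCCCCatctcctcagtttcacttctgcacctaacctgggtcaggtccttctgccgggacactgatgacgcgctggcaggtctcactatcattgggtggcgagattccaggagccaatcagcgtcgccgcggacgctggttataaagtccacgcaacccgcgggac
H2-Q7: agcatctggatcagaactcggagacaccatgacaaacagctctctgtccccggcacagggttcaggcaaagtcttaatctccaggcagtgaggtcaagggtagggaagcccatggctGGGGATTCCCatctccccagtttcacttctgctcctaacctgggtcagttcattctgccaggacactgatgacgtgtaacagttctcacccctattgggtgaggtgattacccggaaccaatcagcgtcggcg
B2m: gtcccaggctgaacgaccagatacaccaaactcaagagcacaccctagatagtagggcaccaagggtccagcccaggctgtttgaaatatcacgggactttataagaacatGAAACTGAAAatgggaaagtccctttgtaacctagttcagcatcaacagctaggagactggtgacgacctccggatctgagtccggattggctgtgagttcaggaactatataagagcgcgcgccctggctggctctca
On either strand, the NF-κB motif was found 3 times before H2-K1, 3 times before H2-D1 (the last 2 matches of each overlap on opposite strands) and 1 time before H2-Q7, at 133 bases before its start. Of all windows of this length 4.93% hold it. The interferon-stimulated response element was found 1 time before B2m, at 139 bases before the start, and 2.98% of windows hold it. A motif missing from a window says only that these letters are not there.

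The list of type I interferon genes leaned the other way from class I in its median, though Irf7 did not. Of 12 type I interferon genes measured in the stricter set, 4 were at least 1.5-fold higher in the knockout library, 0 were lower and the median log2 ratio was 0.29. Ddx58, the RNA sensor RIG-I, had 13 and 43 UMIs (9.12 and 22.6 CPM), a ratio of 2.47 (1.31 to 5.01). Xaf1 had 13 and 38 UMIs and 2.19 (1.14 to 4.47), Lgals3bp 1.72 (1.15 to 2.60) and Irf9, part of the ISGF3 factor, 1.63 (1.23 to 2.19). Stat3 gave 1.16 (1.02 to 1.31) and Irf1, a factor that switches on class I genes, 1.01 (0.48 to 2.19), while Irf7 gave 0.69 (0.44 to 1.10) on 42 and 39 UMIs. The full set gave 7 of 19 higher and 2 lower (Isg15 and Rsad2), and ON cone bipolar cells 12 of 22 higher and 1 lower with a median of 0.63. Over all genes 5.18% were higher and 6.4% lower in the full set, and 6.16% and 4.2% in ON cells. Ifit1, the most used marker of the response, stood at 15.4 and 18.9 CPM in rod bipolar cells, 1.22 (0.70 to 2.18), against 88.1 and 184 CPM in ON cells, 2.08 (1.73 to 2.53).

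Early response genes were partly higher. Of 17 measured in the stricter set, 4 were at least 1.5-fold higher and 0 lower: Jun at 56.8 and 112 CPM, 1.98 (1.52 to 2.58), Atf3 at 81.4 and 139 CPM, 1.71 (1.37 to 2.14), Jund at 283 and 477 CPM, 1.69 (1.498 to 1.90), and Fosb at 40.0 and 66.1 CPM, 1.65 (1.20 to 2.30). Fos gave 0.83 (0.71 to 0.97) and Egr1 0.78 (0.63 to 0.95), so the genes did not move as 1 group, and the median log2 ratio was 0.10. Over the full set 5 of 22 were higher and 3 lower. Of all genes 5.07% were higher and 4.33% lower in the stricter set, and 5.18% and 6.4% in the full set. Atf3 gave 2.38 in ON cells, 0.59 in OFF cells and 1.74 over all other cells, and Jun 1.98, 1.09 and 1.22.

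Acute-phase and other LPS-linked genes had few members past 1.5-fold in the stricter set. Lcn2, a siderophore binder made by reactive glia, stood at 175 and 194 CPM, 1.11 (0.94 to 1.31), against 11734 and 10669 CPM over all other cells. Of 16 NF-κB response genes 0 were higher and Saa3 was lower, at 42.8 and 17.3 CPM, 0.40 (0.26 to 0.63), with 0.73 over all other cells. Full-set counts were 3 of 18 higher, Nfkbia at 30.2 and 48.5 CPM, Tnfaip3 at 28.8 and 53.7 CPM and Ier3 at 32.7 and 55.5 CPM, and Saa3 was lower. The chemokine Cxcl2 stood at 35.8 and 19.4 CPM, 0.54 (0.35 to 0.84), with 0.70 over all other cells. Mt1 gave 1.48 (1.36 to 1.61) in the stricter and 1.54 (1.42 to 1.66) in the full set, Mt2 1.22 (1.06 to 1.40) and Mt3 0.99 (0.75 to 1.31). In all other cells Mt1 gave 2.50. Heat shock genes numbered 0 higher and 0 lower of 20, genes of the unfolded protein response 0 and 0 of 22, and oxidative defence genes 0 and 0 of 18. Lysosomal genes had 1 of 25 higher, Ctsa, and 0 lower. In the full set heat shock genes numbered 1 higher (Cryab) and 1 lower (Hsph1) of 21, the unfolded protein response 0 and 0 of 25, oxidative defence 0 higher and 2 lower (Nfe2l2 and Gclm) of 22, and lysosomal genes 2 higher (Ctsl and Cd63) and 0 lower of 27.

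**Figure D5:**
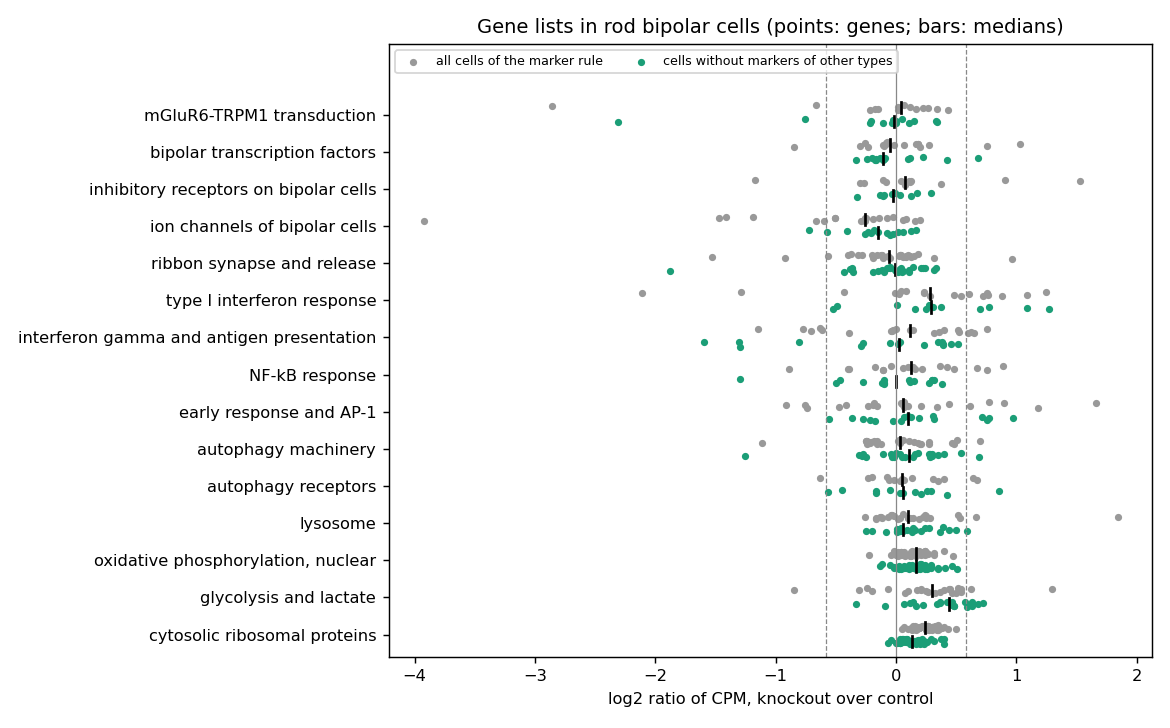
Each row is a gene list and each point a member with at least 50 UMIs, in the full set (grey) and the stricter set (green). The horizontal axis is the log2 ratio of knockout over control, short black bars are medians and dashed lines mark 1.5-fold. Glycolysis has medians of 0.30 and 0.44, and in interferon gamma and antigen presentation the 4 class I genes form the 4 green points left of the dashed line.

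The single genes with the largest ratios depended on the cells kept. Over the full set the 12 largest were Mbd1, Gabrb1, Cenpt, Cck, Pcdh17, Lrrtm2, Drd1, Arhgef28, Zcwpw1, Unc5d, Reln and Syt2. Unc5d, a netrin receptor at 763 and 1499 CPM in ON cone bipolar cells, stood at 366 and 737 CPM in the full set, but 71.9% of its knockout UMIs lay in cells without Pcp2, and in the stricter set it stood at 326 and 204 CPM. Pcdh17 went from 2.52 to 0.47 and the dopamine receptor Drd1 from 2.20 to 0.91. Mbd1 went from 3.14 to 1.36 and Gabrb1 from 2.90 to 1.13.

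Of the 12, 6 stayed at 2-fold or more in the stricter set, although Reln rested on 4 and 49 UMIs in 2 and 7 cells and Cck on 6 and 19 UMIs in 4 and 5 cells. Zcwpw1, a reader of histone methylation, stood at 42.8 CPM in control and 98.1 CPM in knockout cells (61 and 187 UMIs), a ratio of 2.29 (1.71 to 3.11). Over all other cells it gave 1.17. Arhgef28, a RhoA exchange factor that binds RNA, stood at 42.8 and 88.7 CPM, 2.07 (1.54 to 2.82), and at 1.09 over all other cells. Cenpt, a centromere protein, had 15 and 61 UMIs, 3.04 (1.71 to 5.76), and the synaptic adhesion gene Lrrtm2 19 and 51 UMIs, 2.01 (1.16 to 3.60). The stricter set's own largest ratios, named after the values were seen, also held Blcap at 2.20 (1.47 to 3.37), Stoml2, a mitochondrial membrane scaffold, at 2.03 (1.46 to 2.87), Ebag9 at 2.02 (1.28 to 3.27) and Axin1, a scaffold of the β-catenin destruction complex, at 1.87 (1.27 to 2.80).

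At the low end the full set named Kctd16, Rph3a, Ano4, Gabbr2, H2-Q7, Pls3, Uchl1, Adcy2, Grik1, Etv5, Scrt1 and Mfsd6. Kctd16, a GABA-B receptor partner, had a ratio of 0.36 in the full set, 0.80 in the stricter set and, on the log2 scale, 0.64 without the cells that had 20 or more ganglion UMIs. From the full to the stricter set Uchl1, abundant in ganglion cells, went from 0.45 to 1.18, Adcy2 from 0.46 to 1.496 and Grik1 from 0.46 to 1.03. Without the cells that had 20 or more ganglion UMIs their log2 ratios were −0.035, −0.17 and −1.22. Those still at least 1.5-fold lower in the stricter set were H2-Q7, Ano4 at 70.9 and 38.3 CPM, 0.54 (0.39 to 0.74), Etv5 at 0.40 (0.23 to 0.70), Mfsd6 at 0.55 (0.34 to 0.88) and Gabbr2 at 0.28 (0.12 to 0.59).

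In the stricter set Pde10a, a phosphodiesterase of cyclic AMP and cyclic GMP, was the most abundant of the lowest genes. It stood at 647 CPM in control (922 UMIs) and 259.7 CPM in knockout cells (495 UMIs), a ratio of 0.40 (0.36 to 0.45), and had a UMI in 74.5% and 59.9% of cells. In the full set it gave 0.49 (0.44 to 0.53), in ON cells 0.78, in OFF cells 1.17 and over all other cells 1.07. Vwc2l, a secreted protein of the chordin type, stood at 335 and 187 CPM, 0.56 (0.49 to 0.64). Mbp, whose locus also makes the golli proteins of neurons, stood at 109 and 58.2 CPM, 0.54 (0.42 to 0.69), against 0.86 in ON cells and 0.98 over all other cells. Cngb3, the cone channel subunit, gave 0.28 in the stricter set. With cells under 1500 CPM of Pcp2 left out its log2 ratio went from −1.84 to −0.79.

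Cells of 1 library also differed among themselves. Variation was read as the Fano factor (variance over mean) after thinning to 2000 UMIs, which would be 1 for counting noise alone, and its median over 1719 genes of the full set was 1.14 in control cells and 1.12 in knockout cells. The 8 most variable genes were Zfp804b, Galntl6, Cntn5, Pcdh9, Kcnip4, mt-Co1, mt-Co3 and Slit2. Zfp804b, a cone bipolar gene here, had a Fano factor of 25.7 and 14.8. Galntl6, an enzyme of the O-glycan family, lay almost wholly in a few cells: the 5 highest cells held 95.9% of its control and 84.3% of its knockout UMIs, and cells without Pcp2 held 93.01% and 96.4%. Its mean per thinned cell was 0.393 and 0.558 UMI in the full set and 0.0966 and 0.0149 UMI in the stricter set.

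Mitochondrial transcripts varied in a different way, spread over nearly all cells. mt-Co1 was at 0 in only 2 control cells and 0 knockout cells of the stricter set, with a highest value of 318 and 293 UMIs around medians of 159 and 136. Its Fano factor in the stricter set was 10.1 in control cells and 9.23 in knockout cells. The share of mitochondrial UMIs ran from 0.0541% to 24.0% in the control cells and from 0.330% to 24.1% in the knockout cells of the stricter set, with medians of 7.18% and 6.84%.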

How the data were processed

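The deposited files hold counts of UMIs per gene and cell for 1 library per group, made by the authors with Cell Ranger 6.0.0 on mm10, and Seurat 5.2.1 is also named, per the submitters' processing notes. From these counts, cells were kept at 500 or more genes and under 25% mitochondrial UMIs, the limits the study states, and rod bipolar cells were picked by the rule given at the start. The members and the gene lists were chosen with earlier results of these data known. UMIs were summed over the cells of a set and scaled to CPM (Python 3.11.15, numpy 2.4.6, scipy 1.17.1, pandas 2.3.3, matplotlib 3.10.9). Levels carry exact Poisson, ratios exact conditional binomial and shares Clopper-Pearson intervals. A gene was counted as higher or lower past 1.5-fold, with 0.5 added to each count for the log2 ratios. Named genes were those of the rod bipolar programme, the members of each list with the largest and smallest ratio or the highest level, and the 12 largest and 12 smallest ratios among genes of at least 100 UMIs, found in at least 10% of cells and no lower than over all other cells; further list members are named because they were counted. Of 677 list members 675 were found in the files by symbol. No doublet caller and no correction for free RNA was run. The code was tested on simulated data. Alternatives were TMM scaling (edgeR 4.0.16 in R 4.3.3), other limits on cells and genes, thinning and leaving out the deepest or highest cells. Pooled retinas do not allow any count of animals. A few members of these lists are not reported here.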

Additional observations from a re-analysis of the deposited data

How the results depend on the processing

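Each value was recomputed under up to 14 other settings, some of them (the stricter set, leaving out ganglion-rich cells, and limits on mitochondrial UMIs or Pcp2 within the stricter set) chosen after seeing the data. Of 2559 values, 2310 stayed within the counting error of the reported value or within 1.5 times the reported count, 233 moved and 16 were reversed. For single genes 15 of 720 values were reversed in the full set and 1 of 1044 in the stricter set. A reversal was counted only for a gene past 1.5-fold. List medians, most of them near 0, had the other sign in 62 of 363 values of the full set and 30 of 361 of the stricter set. The cause of a change was not tested except where fewer genes or cells were counted by construction. Genes higher and lower in the knockout library numbered 488 and 602 at 50 UMIs per gene, 59 and 81 at 300 UMIs, 151 and 140 with at least 5 marker UMIs and 3 markers detected, and 84 and 57 after thinning. The lower genes alone numbered 182 without the 10% deepest cells, 99 without the 5 highest cells of each gene, 122 in the stricter set and 187 without cells of 20 or more ganglion UMIs. In the stricter set the numbers were 399 and 341 at 50 UMIs, 23 and 29 at 300 UMIs and 51 and 49 after thinning, with 263 higher where CPM were averaged over cells and 71 lower without the 5 highest cells. The median log2 ratio of the mGluR6 list was 0.0014 with at least 5 marker UMIs, 0.014 without the deepest cells, −0.013 in the stricter set, −0.067 without ganglion-rich cells and, in the stricter set after thinning, 0.15. That of the interferon gamma list was −0.55 at 300 UMIs, and in the stricter set −1.31 at 300 UMIs and −1.19 after thinning, where few members besides class I were left. Log2 ratios were reversed with at least 5 marker UMIs for Pcdh17 (−0.30), Unc5d (−0.23) and Uchl1 (0.11); with no amacrine UMI and at most 1 UMI of Scgn for Grik1 (0.069), Pcdh17 (−0.69) and Unc5d (−0.56); for Uchl1 without the deepest cells (0.00088) and without the 5 highest (0.0072); in the stricter set for Adcy2 (0.55), Drd1 (−0.14), Grik1 (0.036), Pcdh17 (−1.07), Uchl1 (0.24) and Unc5d (−0.67); without ganglion-rich cells for Kctd16 (0.64); and, in the stricter set after thinning, for Rgs9bp (0.069). The share of rod bipolar cells among all cells kept went to 1.89% in control cells at 4000 UMIs per cell. It was 1.85% and 4.61% with at least 5 marker UMIs, 1.67% and 3.86% with no amacrine UMI and little Scgn, and 1.75% and 4.33% in the stricter set. Genes higher than in cone bipolar cells numbered 134 after thinning. In the stricter set the glycolysis median stayed between 0.40 and 0.49. The ratio stayed between 0.29 and 0.39 for H2-K1 and between 0.35 and 0.51 for H2-Q7. It stayed between 0.36 and 0.49 for B2m and between 0.48 and 0.65 for H2-D1. No setting left out, as a group, the 12 control cells that held 66.1% of control class I UMIs. These ranges therefore do not test how far the class I ratios rest on those cells. In cells with under 10 class I UMIs the level was 160.5 CPM in control and 183 CPM in knockout cells. TMM scaling moved all log2 ratios by 0.017 in the full and −0.0085 in the stricter set. No paired analysis was possible because each group is 1 library, and for the same reason no replicate could be left out. Depth limits genes under 50 UMIs, for which no ratio was counted.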

Other observations

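Ratios differed with gene length. In the stricter set the 1066 genes with the shortest loci (154 to 10100 bases) had a median log2 ratio of 0.15, and the 1066 with the longest (102899 to 2390387 bases) one of −0.07. Genes at least 1.5-fold lower in the knockout library were 1.03% of the shortest and 5.07% of the longest, and genes at least 1.5-fold higher 4.41% and 1.88%. The full set gave medians of 0.15 and −0.08. Pde10a, Vwc2l and Cngb3 are among the lower genes of the stricter set. Whether length bears on them or on the lists of glycolysis, oxidative phosphorylation and ribosomal protein genes was not tested.

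Cholesterol synthesis genes, which the report does not describe, had 1 of 12 higher in the stricter set (Hmgcs1), 0 lower and a median log2 ratio of 0.03. In ON cone bipolar cells 6 of 17 were higher, among them Sqle, Idi1 and Insig1, with a median of 0.53. Over all genes of the ON cells 6.16% were higher and 4.2% lower. Haemoglobin and other erythroid markers stood at 14.0 CPM in control and 102 CPM in knockout rod bipolar cells of the stricter set, after 1 control cell with 1.09% of the UMIs of its full set had been left out for them.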
